A study of Mus musculus with 12 samples.

Results

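The genes described here are the ligands and receptors of the tumour necrosis factor (TNF) superfamily in thymic epithelial cells, or TECs, which form the stroma in which T cells mature. They were taken by name from the count table: every symbol that starts with Tnfsf or Tnfrsf and a digit, together with Tnf, Lta, Ltb, Fas, Fasl, Ngfr, Eda, Edar, Eda2r and Relt. Tnfrsf11a, Tnfrsf11b and Tnfsf11, the genes of RANK, its decoy and its ligand, were left out. The rule gave 39 of 25867 genes: 15 ligands, 23 receptors and Tnfsf13os, an RNA transcribed antisense to the ligand gene Tnfsf13. Of these, 34 had enough counts to test.

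RNA was sequenced from TECs that had been sorted after organ culture of fetal thymus lobes, taken from C57BL/6 mice at E15.5. All cultures first received 1.35 mM 2'-deoxyguanosine for 4 to 5 days, which kills thymocytes, and then, for 3 days, an agonist antibody to RANK at 10 µg/mL. There were 4 groups of 3 biological replicates. Control and knockout cultures both received tamoxifen: the control genotype is not detailed in the labels, and the knockout cultures carried floxed Kat7 alleles and a tamoxifen-inducible Cre (RosaCre-ERT2) expressed from the Rosa locus, which is active in nearly all cell types and so not restricted to TECs. DMSO and WM-3835 cultures were wild type, WM-3835 being an inhibitor of the histone acetyltransferase KAT7 whose dose and duration the labels do not give. The sample titles write WM-3825 where the treatment field has WM-3835. Whether embryos or lobes were pooled is not stated.

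TNF superfamily ligands are mostly membrane-bound or shed trimers that cluster their receptors on the receiving cell. One class of receptors carries a death domain and can recruit caspase-activating complexes, another binds TRAF adaptor proteins and activates NF-kB, and decoy receptors bind ligand without a working signalling tail. In the thymus, members of the family expressed on TECs, above all RANK and CD40, drive the maturation of the medullary epithelium.

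Library totals ran from 26656847 to 52368012 counts. Kat7 stood at 80.5 ± 7.38 CPM (counts scaled to the library total; mean ± SD, n = 3) in control cultures and at 0.762 ± 0.138 CPM in knockout cultures. It was 87.3 ± 2.37 CPM in DMSO cultures and 99.4 ± 0.953 CPM in those given WM-3835. The epithelial markers chosen as a check, 12 genes such as Epcam, Krt5 and Foxn1, were present in all groups. Their summed levels were 17700 to 20600 CPM in control and 17300 to 18000 CPM in knockout libraries. DMSO libraries summed to 17300 to 20100 CPM, and WM-3835 libraries lower, to 14900 to 17000 CPM. Single markers moved in both directions, such as Krt14 (log2 change -1.34) and Ly75 (0.75) in the knockout, and Psmb11 (-1.26) and Epcam (0.51) with WM-3835. Replicate spread was widest among the controls, with a biological coefficient of variation of 0.469 against 0.294 among knockout, 0.103 among DMSO and 0.125 among WM-3835 libraries. Xist, the RNA of the inactive X chromosome, stood at 2.34 to 3.17 CPM in the controls and 4.94 CPM in knockout 3, but at 1710 and 1190 CPM in knockout 1 and 2 and at 846 to 2120 CPM in all wild-type libraries. Xist thus separated knockout 1 and 2 from the controls and from knockout 3. The sex of the embryos is not stated, and the knockout changes are also given from fits that take Xist into account.

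The family was expressed mainly on the receptor side. On a per-length scale (RPKM, the CPM value divided by the gene length in kilobases, mean ± SD over the 12 libraries), the highest level was that of Tnfrsf1a, the main receptor for TNF, at 76.0 ± 5.61 RPKM. Tnfrsf12a, the receptor for the cytokine TWEAK, followed at 48.8 ± 13.7 RPKM and Tnfrsf14, which binds LIGHT and BTLA, at 43.4 ± 6.79 RPKM. The ranges of these receptors over the 12 libraries were 65.3 to 86.2, 28.2 to 77.3 and 32.2 to 55.4 RPKM, so the second and the third cannot be ordered and the first overlaps only the top of the second.

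Among the 7 receptors with a death domain, 6 had a mean above 5 RPKM, and their median was 11.7 RPKM. Fas stood at 12.5 ± 3.54 RPKM. Tnfrsf10b, the death receptor for TRAIL, reached 11.8 ± 2.14 RPKM, and Tnfrsf21, also called death receptor 6, reached 11.7 ± 1.77 RPKM. These levels lie within each other's spread, and the same holds for Ngfr, the low-affinity neurotrophin receptor, at 9.32 ± 2.92 RPKM. Edar, the ectodysplasin receptor of skin appendages, was lower at 7.85 ± 1.60 RPKM. Its range over the 12 libraries, 5.83 to 10.6 RPKM, still overlapped those of Tnfrsf10b (9.19 to 16.1) and Tnfrsf21 (9.32 to 15.6). The seventh, Tnfrsf25, stood lower, at 1.18 ± 0.673 RPKM. Of the 14 receptors without a death domain, decoys aside, 8 were above 5 RPKM, among them Relt at 21.2 ± 6.00 RPKM and Tnfrsf18, also called GITR, at 16.2 ± 5.25 RPKM.

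Only 2 of the 15 ligands exceeded 5 RPKM: Tnfsf9, the ligand of the costimulatory receptor encoded by Tnfrsf9, at 9.55 ± 3.99 RPKM and Tnfsf10, which encodes TRAIL, at 8.04 ± 2.83 RPKM. The median ligand stood at 0.759 RPKM. The other tested ligands, Ltb, Tnfsf12, Tnf, Eda, Tnfsf15, Tnfsf13, Lta, Tnfsf13b and Tnfsf14, lay between 0.0641 and 2.11 RPKM. Several abundant receptors thus had a ligand that was close to undetected in the same libraries. Fasl, the ligand of Fas, held 0 to 6 counts per library, and Tnfsf18, the ligand of Tnfrsf18, held 0 to 16. Tnfsf4, the ligand of Tnfrsf4 (OX40), likewise held 0 to 16 counts. Fasl, Tnfsf18, Tnfsf4, the ligand gene Tnfsf8 and the B-cell receptor gene Tnfrsf13b are the 5 members with too few counts to test. In the control and knockout libraries Fasl had 0 counts throughout, which allows up to 0.0253 and 0.0325 CPM over the 3 libraries (3 counts; this covers counting error only).

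**Figure D1:**
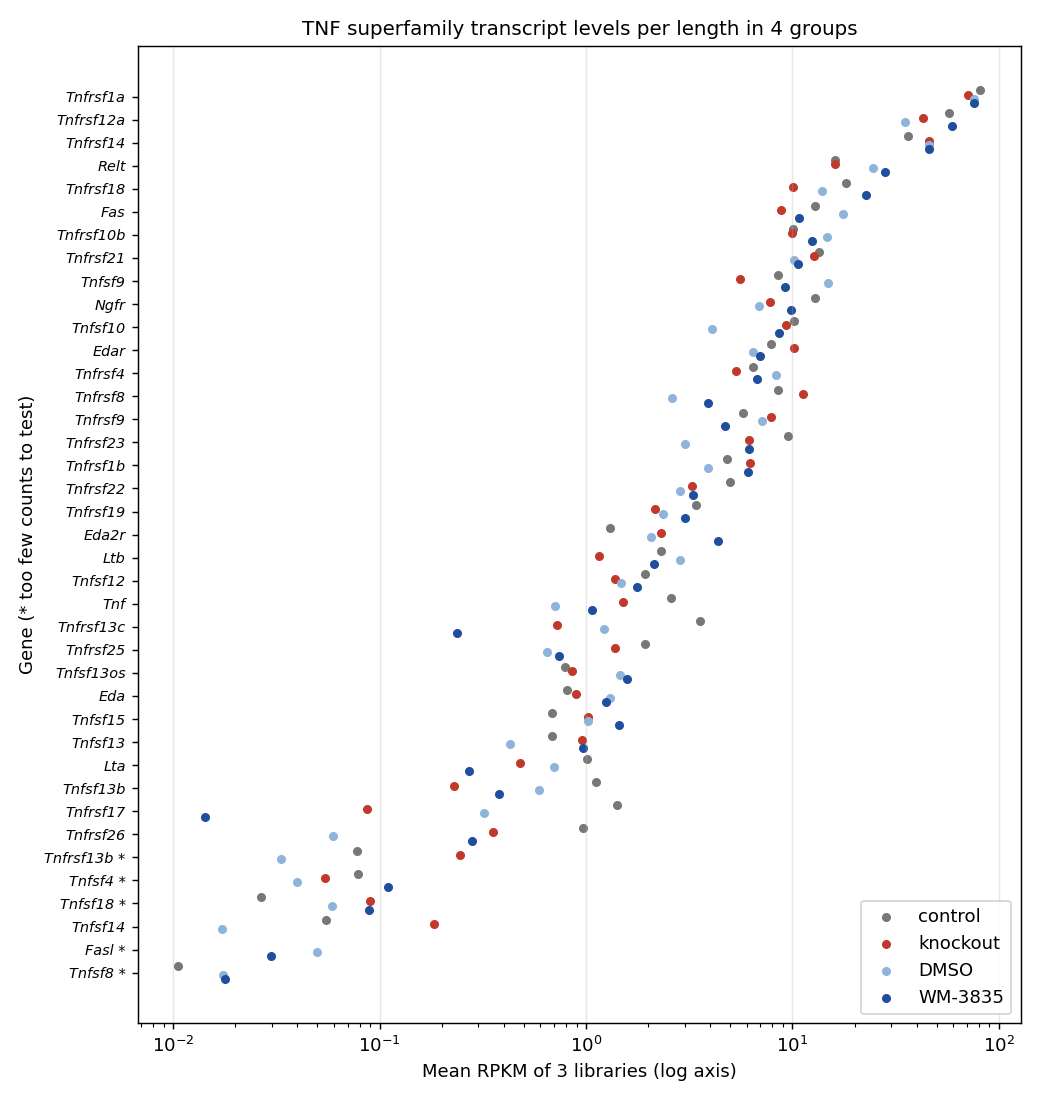
Mean RPKM of 3 libraries per group (log axis) for the 39 genes, ordered by their mean over 12 libraries; points are group means and a group at 0 is not drawn. Receptors such as Tnfrsf1a (76.0 RPKM) fill the upper part, while the highest ligand, Tnfsf9, stands at 9.55 RPKM and Fasl, Tnfsf18, Tnfsf4, Tnfsf8 and Tnfrsf13b (starred) were not tested.

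The comparison of knockout with control cultures asks which of these genes change when Kat7 is removed. Of 34 tested members, 6 passed an adjusted p of 0.05 (Benjamini-Hochberg, over all genes), the threshold for a call: Tnfrsf18, Ngfr, Fas, Tnfrsf13c and Tnfrsf23 fell and Eda2r rose. That is 17.6% of the members, where 14.2% of all 18670 tested genes were called (6.12% higher and 8.06% lower). The median log2 change was -0.34 over the members and -0.01 over all genes, and 23 of 34 members had a negative change. All 6 called genes were receptors. None of the 11 tested ligands was called by edgeR, although 3 had an unadjusted p under 0.05 and DESeq2 called 1, Tnfsf13b. That gene held 0.994, 0.498 and 4.20 CPM in control and 0.634, 0.258 and 0.278 CPM in knockout libraries. These groups overlapped, and control 3 stood far above the other controls. With WM-3835 against DMSO, 9 of 34 members were called (26.5%, against 18.7% of all genes, of which 9.34% higher and 9.35% lower). Tnfrsf12a, Tnfrsf18, Tnfrsf1b, Tnfrsf23, Eda2r and Tnfsf10 rose, Fas, Tnfrsf9 and Tnfrsf13c fell, and the median was 0.14.

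In the knockout comparison the 3 libraries of one group lay wholly above or below the other 3 for 12 members (35.3%, against 25.7% of all genes), and in the inhibitor comparison for 19 (55.9%, against 46.1%). The 2 comparisons share no library. They had 5 called members in common, of which 3 changed the same way and 2 in opposite ways. Over all tested genes 1001 were called in both (5.36%, against 14.7% of the members), 757 the same way and 244 in opposite ways. In all, 10 members were called in at least 1 of them.

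**Figure D2:**
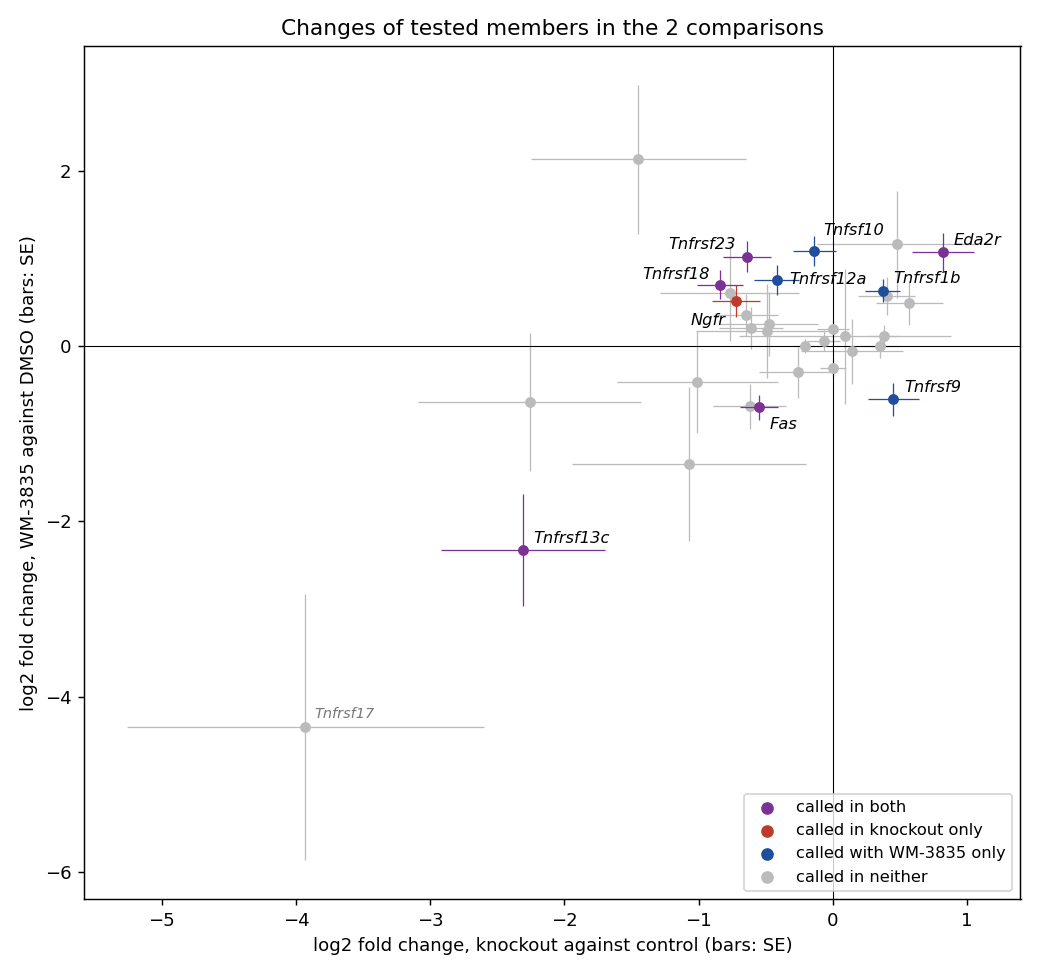
Log2 fold change of each tested member in knockout against control (horizontal) and in WM-3835 against DMSO (vertical), with bars of 1 SE and colours for the calls; Tnfsf14, with few counts, is not drawn. Fas and Tnfrsf13c lie lower left and Eda2r upper right, while Tnfrsf18 (-0.84 and 0.70) and Tnfrsf23 (-0.64 and 1.02) lie upper left.

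Fas, Tnfrsf13c and Eda2r changed in the same direction with loss of Kat7 and with the inhibitor. Fas (Entrez ID 14102, chromosome 19, 34290647 to 34327775 on GRCm38, also called mm10) encodes the death receptor that triggers apoptosis on binding Fas ligand. Its levels were 23.0, 20.6 and 25.9 CPM in control and 16.8, 14.3 and 16.3 CPM in knockout libraries. DMSO libraries held 30.3, 31.9 and 32.6 CPM and WM-3835 libraries 16.2, 20.5 and 21.5 CPM. Every treated library lay below every library of its reference group. Fas fell by 0.55 on the log2 scale in the knockout (SE 0.14, adjusted p = 0.0139) and by 0.70 with WM-3835 (SE 0.14, adjusted p = 0.00132), and the changes did not differ by the test (difference 0.16, SE 0.20, adjusted p = 0.716). Without knockout 2 the fall in the knockout was -0.47 and did not pass (adjusted p = 0.0666).

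Tnfrsf13c (Entrez ID 72049, chromosome 15, 82221742 to 82224380) encodes the receptor for the B-cell survival factor BAFF. It was a low transcript with the largest called changes among the members in the knockout and inhibitor comparisons. Control libraries held 5.06, 5.90 and 9.46 CPM and knockout libraries 0.303, 1.03 and 2.82 CPM, while DMSO libraries held 1.77, 3.40 and 1.83 CPM and WM-3835 libraries 0.470, 0.704 and 0.173 CPM. No library of a treated group reached its reference group, but the DMSO libraries overlapped the knockout libraries. The log2 change was -2.31 in the knockout (SE 0.61, adjusted p = 0.0171) and -2.33 with WM-3835 (SE 0.64, adjusted p = 0.0147), with a difference of 0.03 (SE 0.72). Without DMSO 2, WM-3835 1 or WM-3835 3 the fall with the inhibitor did not pass (-1.97, -2.36 and -1.98), nor did that in the knockout without knockout 1 or 2 (-1.81 and -2.13).

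Tnfrsf17, another receptor of the B lineage (BCMA), had the same order of groups at still lower levels. Control libraries held 1.04, 1.24 and 1.17 CPM and knockout libraries 0.138, 0.0736 and 0 CPM. DMSO libraries held 0.231, 0.224 and 0.328 CPM and WM-3835 libraries 0, 0 and 0.0347 CPM. Neither comparison passed by edgeR (adjusted p = 0.0557 and 0.0547), and DESeq2 called both. The B-cell markers Cd79a, Cd79b, Ms4a1 and Pax5 were low in all groups. Cd79b, part of the B-cell receptor, stood at 4.81 to 6.35 CPM in control libraries and 2.87 to 6.72 CPM in knockout libraries, which overlapped, and at 1.98 to 3.63 CPM in DMSO and 2.31 to 3.34 CPM in WM-3835 libraries. Its partner Cd79a stood at 0.724 to 1.56 CPM in control libraries and 0 to 0.765 CPM in knockout libraries, and Ms4a1 was at 0 in all 3 knockout libraries. Cd79a (-1.66), Cd79b (-0.31) and Pax5 (-0.48) had negative log2 changes in the knockout. With WM-3835 the log2 changes were -0.79 for Cd79a, 0.14 for Cd79b and 0.56 for Pax5. These genes were called in neither comparison, and Ms4a1 had too few counts to test. The part of B cells in the falls of Tnfrsf13c was not tested. In these bulk libraries fewer cells of a type and less RNA per cell cannot be told apart.

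Eda2r (Entrez ID 245527, chromosome X, 97333837 to 97377234) encodes the X-linked receptor for the A2 form of ectodysplasin. It was the only member that edgeR called higher in both comparisons. Others, such as Tnfrsf1b, had positive changes in both without passing by edgeR in both. Control libraries held 10.2, 6.97 and 5.59 CPM and knockout libraries 11.8, 15.8 and 12.5 CPM. DMSO libraries held 12.5, 10.4 and 13.1 CPM and WM-3835 libraries 28.4, 17.6 and 29.6 CPM. The groups of each comparison did not overlap, and the DMSO libraries overlapped the knockout libraries. The rise was 0.82 in the knockout (SE 0.23, adjusted p = 0.0224) and 1.07 with WM-3835 (SE 0.22, adjusted p = 0.00215). The difference between them, -0.25 (SE 0.32, adjusted p = 0.715), was not called. Without control 2, control 3 or knockout 2 the rise in the knockout did not pass (0.77, 0.65 and 0.69).

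The 250 bases before the annotated start of Fas, Tnfrsf13c and Eda2r are shown because edgeR called these 3 members in the same direction in both comparisons. The segment before the downstream start of Tnfrsf9 is added because it alone among the 10 called members held a match to the NF-kB consensus. Sequences are from RefSeq on GRCm38.p6, 5' to 3' on the strand of the gene, and capitals mark matches on either strand to the NF-kB consensus, the AP-1 site TGANTCA, the CRE TGACGTCA, the GC box GGGCGG or the TATA box TATAAA.
Fas, chr19:34290409-34290658, plus strand: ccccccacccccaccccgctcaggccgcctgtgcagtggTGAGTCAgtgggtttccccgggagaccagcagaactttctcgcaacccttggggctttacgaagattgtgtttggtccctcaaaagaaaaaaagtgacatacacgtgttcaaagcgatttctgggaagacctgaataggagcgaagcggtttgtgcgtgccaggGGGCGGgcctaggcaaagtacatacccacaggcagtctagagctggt
Eda2r, chrX:97377210-97377459, minus strand: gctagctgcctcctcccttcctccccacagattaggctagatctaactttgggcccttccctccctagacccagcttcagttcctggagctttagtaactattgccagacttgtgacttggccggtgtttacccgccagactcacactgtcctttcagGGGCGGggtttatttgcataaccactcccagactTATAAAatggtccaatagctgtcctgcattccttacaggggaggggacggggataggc
Tnfrsf13c, chr15:82224381-82224630, minus strand: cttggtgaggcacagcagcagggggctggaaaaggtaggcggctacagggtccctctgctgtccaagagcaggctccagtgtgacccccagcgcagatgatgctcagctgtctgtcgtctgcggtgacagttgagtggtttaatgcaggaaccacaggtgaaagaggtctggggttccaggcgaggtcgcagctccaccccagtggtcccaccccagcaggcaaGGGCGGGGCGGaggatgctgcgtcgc
Tnfrsf9, chr4:150927749-150927998, plus strand: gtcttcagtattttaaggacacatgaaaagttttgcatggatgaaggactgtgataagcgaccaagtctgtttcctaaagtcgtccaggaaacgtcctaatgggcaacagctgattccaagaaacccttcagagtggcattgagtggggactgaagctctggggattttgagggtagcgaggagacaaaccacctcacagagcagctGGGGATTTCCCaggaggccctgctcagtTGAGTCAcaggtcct

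Fas, Eda2r and Tnfrsf13c each hold a GC box, and with them 8 of the 10 called members do. Fas has an AP-1 match 211 to 205 bases before the start and a GC box at 47 to 42. Eda2r has a GC box at 92 to 87 and a TATA box at 58 to 53. In Tnfrsf13c the capitals are 2 GC boxes that share a base, at 26 to 16. In Tnfrsf9 they are a pair of overlapping NF-kB matches from 43 to 33 and an AP-1 match at 15 to 9. Among all 32851 promoter segments of this length, 3.90% hold the NF-kB consensus, 6.75% the AP-1 site, 1.55% the CRE, 32.7% the GC box and 12.4% the TATA box. The 32 members with a segment were counted by gene, with a match in any segment of the gene, so these counts are not shares of segments. Of these members 3 (Ltb, Tnfrsf8 and Tnfrsf9) hold the NF-kB consensus, 6 the AP-1 site, 17 the GC box, 6 the TATA box and 0 the CRE. A match is a description of the letters, not a site shown to be bound.

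Tnfrsf18 and Tnfrsf23 fell with loss of Kat7 and rose with the inhibitor. Tnfrsf18 (Entrez ID 21936, chromosome 4, 156026322 to 156028894) encodes GITR, a costimulatory receptor known from regulatory T cells. Control libraries held 18.4, 15.4 and 20.9 CPM and knockout libraries 9.04, 9.31 and 12.3 CPM. DMSO libraries held 15.49, 13.6 and 12.9 CPM and WM-3835 libraries 23.7, 25.4 and 19.1 CPM. All knockout libraries were below all controls, and all WM-3835 libraries above all DMSO libraries. The log2 change was -0.84 in the knockout (SE 0.17, adjusted p = 0.00349) and 0.70 with WM-3835 (SE 0.17, adjusted p = 0.00662). These changes differed by -1.53 (SE 0.24, adjusted p = 0.000386). Its neighbour Tnfrsf4, which encodes OX40 and ends 9709 bases away, was called in neither comparison (-0.26, SE 0.29, and -0.30, SE 0.29). Markers of T cells were low in all groups, at a summed 13 to 26.9 CPM for 10 genes, with Cd2 at 0 in all control, knockout and WM-3835 libraries and Cd8a at 0 in all knockout and WM-3835 libraries. Lck, the most abundant of the list with Ptprc, stood at 6.71 to 8.16 CPM in control, 7.03 to 11.6 CPM in knockout, 7.86 to 10.2 CPM in DMSO and 10.2 to 14.2 CPM in WM-3835 libraries. Ptprc ran from 4.46 to 13.1 CPM over the control and knockout libraries and from 0.652 to 2.13 CPM over the wild-type libraries, and neither gene was called in a main comparison.

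Tnfrsf23 (Entrez ID 79201, chromosome 7, 143665807 to 143686436) encodes a mouse decoy receptor for TRAIL. Control libraries held 40.0, 24.2 and 29.9 CPM, knockout libraries 17.7, 23.5 and 19.4 CPM, DMSO libraries 9.75, 9.16 and 10.95 CPM and WM-3835 libraries 22.0, 16.6 and 22.2 CPM. The controls were highest, DMSO lowest, and the knockout and WM-3835 libraries overlapped between them. The gene fell by 0.64 in the knockout (SE 0.18, adjusted p = 0.0235) and rose by 1.02 with WM-3835 (SE 0.18, adjusted p = 0.000567), a difference of -1.66 (SE 0.26, adjusted p = 0.000313). Without control 1, knockout 1 or knockout 3 the fall in the knockout did not pass (-0.41, -0.54 and -0.60).

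The related genes beside Tnfrsf23, the decoy gene Tnfrsf22 at 16132 bases and Tnfrsf26, 6963 bases beyond that one, were not called by edgeR in either comparison. Tnfrsf22 had changes of -0.61 (SE 0.24, adjusted p = 0.0951) in the knockout and 0.20 (SE 0.24) with WM-3835. Tnfrsf26 had changes of -1.45 (SE 0.80) and 2.13 (SE 0.85, adjusted p = 0.0958) at 0 to 3.88 CPM. Both thus had the signs of Tnfrsf23 without passing by edgeR, and DESeq2 called Tnfrsf26 with WM-3835. In the GENCODE transcripts 13.1% of the 75-base windows of Tnfrsf23 also occur in Tnfrsf22, so part of their reads cannot be assigned for certain, and an antisense gene, E230032D23Rik, overlaps all 3 of them.

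**Figure D3:**
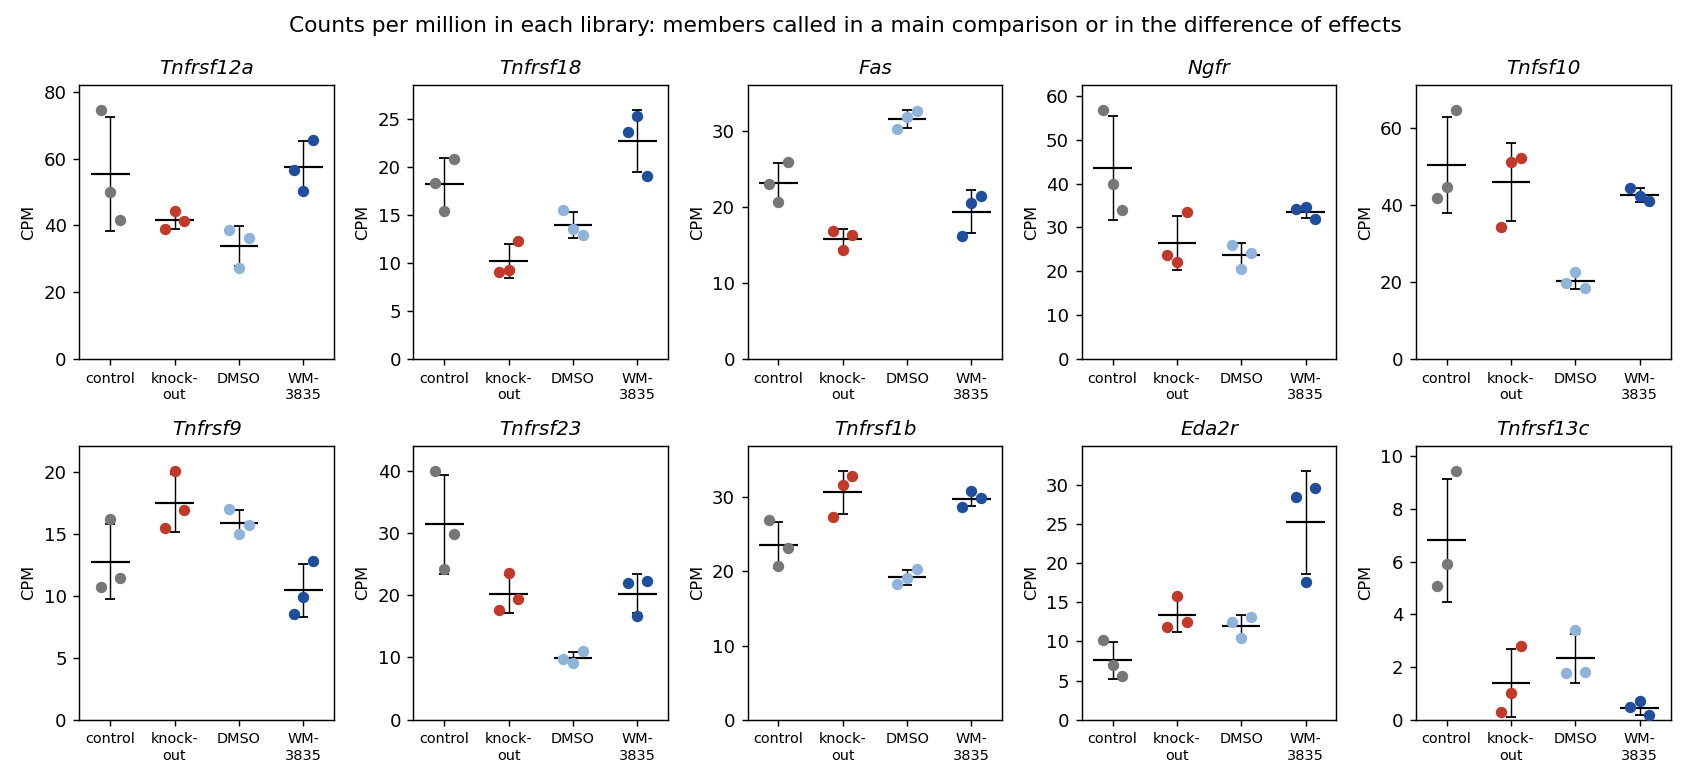
CPM in each library for the 10 members called in a comparison or in the difference of the effects; points are libraries, horizontal bars group means and error bars 1 SD (n = 3), with axes from 0. The 3 knockout libraries of Fas (14.3 to 16.8) lie below the controls (20.6 to 25.9), and those of Tnfrsf18 likewise, whereas Tnfrsf18 is higher with WM-3835 (19.1 to 25.4) than with DMSO (12.9 to 15.49).

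Ngfr was the fifth member that fell in the knockout. This gene (Entrez ID 18053, chromosome 11, 95568818 to 95587698), whose receptor binds neurotrophins and carries a death domain, lies 258572 bases from Kat7 on the same chromosome. Its levels were 56.8, 40.0 and 33.9 CPM in control and 23.6, 22.2 and 33.6 CPM in knockout libraries, while DMSO libraries held 26.0, 20.6 and 24.2 CPM and WM-3835 libraries 34.1, 34.6 and 31.9 CPM. Knockout 3 all but touched control 3. The log2 change was -0.72 in the knockout (SE 0.18, adjusted p = 0.0106) and 0.51 with WM-3835 (SE 0.18, adjusted p = 0.0524 by edgeR, while DESeq2 passed it), and they differed by -1.23 (SE 0.25, adjusted p = 0.00314). Without control 1, knockout 1 or knockout 2 the fall in the knockout did not pass (-0.47, -0.63 and -0.60).

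Ngfr is known from mesenchymal and neural crest-derived cells as well as epithelium. The list of 9 fibroblast markers, all in the table, summed to 128 to 212 CPM in control and 66.5 to 96.7 CPM in knockout libraries, with 59.9 to 79.3 CPM in DMSO libraries and 56.5 to 69.6 CPM in WM-3835 libraries. In the knockout, Dcn (-1.79), Thy1 (-3.02), Lum (-2.36) and Col1a1 (-1.15) passed and fell. With WM-3835 the list was not of one piece: Pdgfra rose (4.11, adjusted p = 2.66e-06), and Pdgfrb (-1.09), Dcn (-1.10) and Thy1 (-3.79) fell. The sum of the 9 macrophage and dendritic markers was 115 to 171 CPM in control and 91.1 to 106 CPM in knockout libraries, carried by Lyz2 and Mpeg1. In the knockout Lyz2 alone of these genes was called (-0.98, adjusted p = 0.0132). Adgre1 (-1.43), Tyrobp (-0.91) and Mpeg1 (-0.27) also had negative changes, while Csf1r (0.25), Itgam (0.31), Itgax (0.59) and Fcer1g (0.22) had positive changes. The sum was 63.8 to 83.7 CPM in DMSO and 81.7 to 98.8 CPM in WM-3835 libraries, and Mpeg1 rose with WM-3835 (1.03, adjusted p = 3.94e-07). Of the innate lymphoid markers, Id2 fell in the knockout (-0.94, adjusted p = 0.00407) and rose with WM-3835 (0.72, adjusted p = 0.016), and Klrk1 was at 0 in all 12 libraries. The part of these cells in the falls of the 5 receptors was not tested.

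Another 4 members were called with the inhibitor and not in the knockout. Tnfsf10 (Entrez ID 22035, chromosome 3, 27317077 to 27339665), the gene of the death ligand TRAIL, was the only ligand that edgeR called in a main comparison. DMSO libraries held 19.7, 22.5 and 18.4 CPM and WM-3835 libraries 44.5, 42.3 and 41.0 CPM, while control libraries held 41.8, 44.6 and 64.7 CPM and knockout libraries 34.3, 51.1 and 52.3 CPM. DMSO thus stood apart as the low group. Tnfsf10 rose by 1.08 with WM-3835 (SE 0.17, adjusted p = 0.000147), its change in the knockout was -0.14 (SE 0.16), and the difference, -1.21 (SE 0.23, adjusted p = 0.00202), passed. The death receptor for TRAIL, Tnfrsf10b, had means of 32.0 ± 2.58 CPM in control, 31.9 ± 0.702 CPM in knockout, 46.9 ± 3.77 CPM among DMSO and 39.4 ± 1.28 CPM among WM-3835 libraries. All WM-3835 libraries lay below all DMSO libraries, and the change did not pass by edgeR (-0.25, SE 0.10, adjusted p = 0.0971) but passed by DESeq2.

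Tnfrsf12a (Entrez ID 27279, chromosome 17, 23675445 to 23677449), the TWEAK receptor induced by growth factors and injury, also rose in the wild-type cultures. DMSO libraries held 38.6, 27.2 and 36.1 CPM and WM-3835 libraries 56.7, 50.2 and 65.5 CPM, without overlap, a rise of 0.75 (SE 0.17, adjusted p = 0.00414). Control libraries held 74.6, 49.9 and 41.7 CPM and knockout libraries 39.0, 44.2 and 41.3 CPM, which overlapped (-0.42, SE 0.17, adjusted p = 0.114). The difference of the effects was -1.17 (SE 0.24, adjusted p = 0.00366). The gene of its ligand, Tnfsf12, was not called in either comparison (-0.48, SE 0.37, and 0.25, SE 0.37).

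Tnfrsf1b (Entrez ID 21938, chromosome 4, 145212368 to 145246870) encodes the TNF receptor that has no death domain. DMSO libraries held 18.3, 19.1 and 20.3 CPM and WM-3835 libraries 28.7, 30.8 and 29.9 CPM, a rise of 0.63 (SE 0.13, adjusted p = 0.00153). Control libraries held 26.9, 20.7 and 23.2 CPM and knockout libraries 27.3, 31.7 and 32.9 CPM, also without overlap, with a change of 0.37 that did not pass by edgeR (SE 0.13, adjusted p = 0.0562) and passed by DESeq2. The effects did not differ by the test (-0.26, SE 0.18, adjusted p = 0.431). Tnfrsf1a, the death-domain receptor for the same ligand, had means of 175 ± 14.5 CPM in control, 152 ± 10.1 CPM in knockout, 164 ± 8.18 CPM among DMSO and 164 ± 3.60 CPM among WM-3835 libraries. Tnfrsf1a had a change of 0.00 (SE 0.08) with WM-3835 and -0.21 (SE 0.08, adjusted p = 0.0815 by edgeR, while DESeq2 passed it) in the knockout. Tnf itself was called in neither (-0.77, SE 0.52, and 0.60, SE 0.54).

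Tnfrsf9 (Entrez ID 21942, chromosome 4, 150920155 to 150946104) encodes a costimulatory receptor of activated T cells. DMSO libraries held 17.0, 15 and 15.7 CPM and WM-3835 libraries 8.57, 9.94 and 12.8 CPM, a fall of 0.61 on the log2 scale (SE 0.19, adjusted p = 0.0311). In control it stood at 10.7, 16.2 and 11.4 CPM and in knockout libraries at 15.48, 20.1 and 16.9 CPM, which overlapped (0.45, SE 0.19, adjusted p = 0.126). It was the only member whose effects differed in the upward direction (1.06, SE 0.27, adjusted p = 0.0151). The fall with WM-3835 did not pass when any one of DMSO 1, DMSO 2, DMSO 3, WM-3835 1 and WM-3835 2 was left out (-0.65 to -0.49, adjusted p up to 0.164), nor did the difference without WM-3835 1 (0.95, adjusted p = 0.052). Its ligand gene Tnfsf9 had means of 10.5 ± 3.17 CPM in control and 6.85 ± 2.71 CPM in knockout libraries, which overlapped. Tnfsf9 was at 18.3 ± 2.95 CPM in DMSO libraries and 11.3 ± 1.76 CPM in WM-3835 libraries, without overlap, and did not pass (-0.69, SE 0.26, adjusted p = 0.0752). Tnfrsf9 lies within Camta1, a gene of the opposite strand, and Tnfrsf18 overlaps an antisense RNA, Gm16008. The kit does not mark strand, so their reads could be mixed where exons overlap.

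The difference between the knockout and the inhibitor effect was called for 6 of 34 members (17.6%, against 10.1% of all genes, of which 4.41% higher and 5.69% lower). These were Tnfrsf23, Tnfrsf18, Ngfr, Tnfsf10 and Tnfrsf12a, all lower in the knockout comparison, and Tnfrsf9.

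Among the abundant members, Relt and Tnfrsf21 were not called in either main comparison. Relt, an orphan receptor, had means of 45.2 ± 4.58 CPM in control, 45.2 ± 2.77 CPM in knockout, 69.1 ± 8.51 CPM among DMSO and 79.0 ± 12.1 CPM among WM-3835 libraries. Tnfrsf21 stood at 48.5 ± 7.12, 46.2 ± 4.02, 37.0 ± 3.12 and 38.6 ± 2.27 CPM in the same order. Tnfrsf14 had means of 32.2 ± 3.12 CPM in control libraries and 41.1 ± 6.79 CPM in knockout libraries, which overlapped (0.35, SE 0.14, adjusted p = 0.107), and at 40.8 ± 0.241 and 40.9 ± 7.83 CPM in the wild-type cultures. Edar narrowly missed in the knockout by edgeR (0.38, SE 0.12, adjusted p = 0.0514) and passed by DESeq2, with all 3 knockout libraries above the controls. Its ligand gene Eda, on the X chromosome, was not called (0.14, SE 0.38).

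The remaining tested members, Tnfrsf4, Tnfrsf8, Tnfrsf17, Tnfrsf19, Tnfrsf22, Tnfrsf25, Tnfrsf26, Ltb, Lta, Tnfsf12, Tnfsf13, Tnfsf13b, Tnfsf14, Tnfsf15 and Tnfsf13os, were called by edgeR in neither main comparison. DESeq2 called Tnfrsf17 in both, Tnfsf13b in the knockout and Tnfrsf26 with WM-3835. Reads of Tnfsf12 and Tnfsf13 are uncertain: 45.8% and 55.7% of their 75-base windows also occur in the readthrough gene annotated across both, and Tnfsf13os overlaps them on the other strand.

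Control and DMSO cultures, the reference groups, themselves differed in this family. Of the 34 members, 15 were called (44.1%, against 24.6% of all genes), 5 higher in DMSO (11.4% of all genes) and 10 lower (13.3%). This comparison shares its libraries with the others, and genotype label and treatment both differ within it. Xist separated its groups too, at 2.34 to 3.17 CPM in control and 1380 to 1900 CPM in DMSO libraries. No fit with an Xist term was made for it, so the part of Xist in these calls was not tested. The largest called differences were those of Tnfrsf26 (-3.91, SE 0.89), Tnf (-1.87, SE 0.54), Tnfrsf8 (-1.69, SE 0.22), Tnfrsf23 (-1.65, SE 0.18) and Tnfrsf25 (-1.57, SE 0.54). Tnfsf10 (-1.32), Ngfr (-0.88), Tnfrsf22 (-0.81), Tnfrsf12a (-0.70) and Tnfrsf21 (-0.39) were lower with DMSO as well. Tnfsf9 (0.80), Eda2r (0.66), Relt (0.61), Tnfrsf10b (0.55) and Fas (0.45) were higher. For Tnfrsf23, Tnfsf10, Ngfr and Tnfrsf12a, DMSO had the lowest group mean and WM-3835 stood nearer the control level. For Ngfr the DMSO libraries overlapped the knockout libraries, so these groups cannot be ordered. Tnf rested partly on control 3, which held 7.82 CPM against 3.27 and 1.49 CPM in the other controls, and without it the log2 difference was -1.04 and did not pass. Without DMSO 1 or DMSO 3 it did not pass either (-1.83 and -1.66). Leaving out single control or DMSO libraries also ended the calls of Tnfrsf25 (-1.83 to -1.26 in those fits), Tnfrsf22 (-0.81 to -0.63), Tnfrsf21 (-0.38 to -0.25), Fas (0.39 to 0.45), Eda2r (0.51 to 0.65) and Tnfsf9 (0.62 to 0.81).

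Pathway genes around the receptors changed in part. Of 27 receptor-proximal adaptors and enzymes, 3 were called in the knockout (11.1%, against 14.2% of all genes). With Xist as a covariate in the fit, 1 was called there, and 2.69% of all genes. Map3k5, the kinase ASK1, rose from 112 ± 9.67 to 153 ± 5.91 CPM (0.45, SE 0.07, adjusted p = 0.000565), Traf6 rose by 0.33 (SE 0.09) and Traf4 fell by 0.59 (SE 0.10, adjusted p = 0.000605), while Ripk3 did not pass (-1.16, SE 0.42, adjusted p = 0.0701). Without control 3 or knockout 2 the rise of Traf6 did not pass (0.23 and 0.28). With WM-3835, 4 adaptors rose and 4 fell (29.6%, against 18.7%). Birc2, a ubiquitin ligase that restrains NIK and blocks TNF-induced death, fell from 262 ± 17.5 to 163 ± 4.24 CPM (-0.68, SE 0.08, adjusted p = 8.95e-06). Otulin, which removes linear ubiquitin chains, fell by 0.63 (SE 0.09), while Rnf31, whose product builds them, rose by 0.36 (SE 0.08). Mlkl, the executor of necroptosis, rose from 7.19 ± 1.39 to 16.6 ± 1.74 CPM (1.22, SE 0.19, adjusted p = 0.000174).

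Of the 13 genes of NF-kB subunits and feedback, 3 were called in each comparison (23.1%, against 14.2% of all genes in the knockout and 18.7% with WM-3835). In the knockout 0 were called with Xist as a covariate (2.69% of all genes). The count was also 0 with limma-voom (6.32%) and on the 6 libraries of that comparison alone (6.53%). Map3k14, which encodes NIK, fell by 0.31 (SE 0.08) and Tnfaip3, the feedback inhibitor A20, fell by 0.39 (SE 0.11) in the knockout, while Ikbkg rose by 0.28 (SE 0.09). Nfkb1 was not called there (-0.15, SE 0.07). These calls were lost without single libraries: Map3k14 without control 3, knockout 2 or knockout 3 (-0.28 to -0.25), Tnfaip3 without control 1, control 2, knockout 2 or knockout 3 (-0.39 to -0.27), and Ikbkg without control 2, control 3, knockout 1 or knockout 2 (0.22 to 0.31). With WM-3835 Ikbkg rose by 0.46 (SE 0.09) and Rela by 0.34 (SE 0.08), Relb fell by 0.27 (SE 0.08), and Map3k14 had a change of -0.23 (SE 0.08, adjusted p = 0.0627). The fall of Relb did not pass without DMSO 1, DMSO 3 or WM-3835 1 (-0.27 to -0.24).

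Among 7 proteases and cofactors that process the ligands, Furin, which cleaves ectodysplasin and TWEAK precursors, fell by 0.44 in the knockout (SE 0.08, adjusted p = 0.00168) and rose by 0.37 with WM-3835 (SE 0.08, adjusted p = 0.0036). Rhbdf2, a partner of the TNF-shedding protease, rose by 0.36 in the knockout (SE 0.10) and had a change of -0.27 with WM-3835 (SE 0.10, adjusted p = 0.0734). The rise of Rhbdf2 did not pass without control 3 or knockout 1 (0.27 and 0.30). Sppl2a and Adam17 were not called in the knockout (0.19 and 0.14), and Rhbdf1 (0.50, SE 0.08) and Adam10 (0.41, SE 0.10) rose with the inhibitor. In all, 2 of the 7 were called in the knockout (28.6%, against 14.2% of all genes) and 3 with WM-3835 (42.9%, against 18.7%). With Xist as a covariate 0 of the 7, Furin included, were called in the knockout (2.69% of all genes).

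The superfamily genes that carry other names were measured as well, 4 of 5 of them with enough counts, Cd40lg being at 0 in every library. Cd40, the receptor through which T cells stimulate medullary TECs, fell from 98.8 ± 7.35 to 63.6 ± 5.18 CPM with WM-3835 (-0.64, SE 0.09, adjusted p = 3.89e-05). Its change in the knockout was -0.21 (SE 0.09, adjusted p = 0.124), and the effects differed by 0.43 (SE 0.12, adjusted p = 0.0306). Cd70 fell by 1.03 with WM-3835 (SE 0.35, adjusted p = 0.0456), a call lost without the filter on low counts and without DMSO 1, DMSO 2, DMSO 3, WM-3835 1 or WM-3835 3 (-1.14 to -0.83), and had a change of -0.30 in the knockout (SE 0.35). Ltbr, the lymphotoxin beta receptor, was not called (0.13, SE 0.07, and -0.11, SE 0.07), nor was Cd27 (0.50, SE 0.52, and 0.04, SE 0.52). None of the 4 was called by edgeR or DESeq2 in the knockout, with 1 at an unadjusted p under 0.05.

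The knockout calls depended on how the libraries were treated. With Xist as a covariate, edgeR called 0 of the 34 members in the knockout comparison (7 at an unadjusted p under 0.05), and 2.69% of all genes. With knockout 1 and 2, which hold Xist, left out together, knockout 3 was the only knockout library and was assumed to vary like the other groups. The log2 changes were -1.26 for Tnfrsf13c, -0.36 for Ngfr, -0.56 for Tnfrsf18, -0.49 for Fas and 0.73 for Eda2r. Within groups Xist differed mainly between knockout 3 and the other knockout libraries, so the Xist term rests largely on that contrast. These fits are therefore not separate checks, and neither can tell Xist from other traits of knockout 3. With the Xist term the log2 change of Tnfrsf13c went from -2.31 to -0.96, that of Ngfr from -0.72 to -0.35 and that of Tnfrsf18 from -0.84 to -0.52. Those of Fas (-0.55 to -0.50), Tnfrsf23 (-0.64 to -0.75) and Eda2r (0.82 to 0.64) moved less. The direction of all 6 changes was kept in all 14 other fits. These fits reuse libraries whose groups did not overlap for these 6 genes, so most of them could hardly change a direction. On its own 6 libraries the comparison called 3 members, Tnfrsf18, Ngfr and Tnfrsf13c, with 6.53% of all genes. In the inhibitor comparison, where all 6 libraries held Xist, 7 of the 9 calls passed in all 12 other fits, and Tnfrsf13c and Tnfrsf9 did not.

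**Figure D4:**
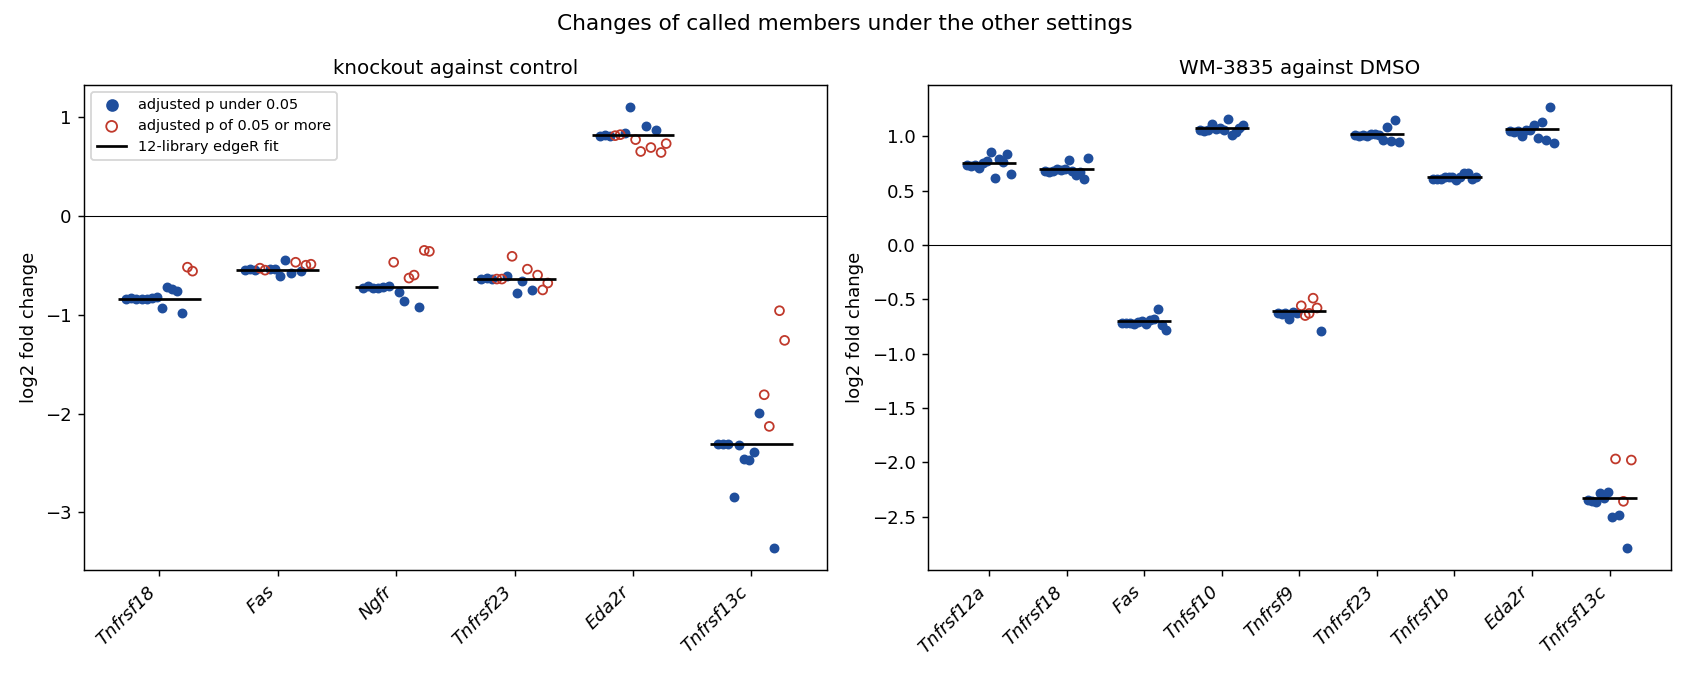
Log2 fold change of each called member in the 12-library edgeR fit (line) and in the other fits (points), filled where the adjusted p was under 0.05; left, knockout against control (14 fits), right, WM-3835 against DMSO (12 fits). No point crosses 0, each of the 6 knockout genes has open points, and on the right open points occur for Tnfrsf9 and Tnfrsf13c.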

How the data were processed

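RNA-seq counts of 12 libraries were analysed. The deposited values are raw counts per gene, each with an Entrez ID, a symbol and a gene length, per the file headers. The authors used featureCounts with mm10, per the submitters' processing notes. No aligner, annotation or strand setting is given in the sources used here. The kit, sequenced as 75-base pairs per the labels' protocols, does not mark strand. Gene lengths were used for RPKM.

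The 1312 genes without a symbol (0.657% to 0.743% of counts) were left out. Libraries were scaled by TMM, filterByExpr left 18670 genes, and edgeR 4.0.16 (R 4.3.3) fitted a quasi-likelihood model with 4 group means to all 12 libraries. Fold changes are log2 with standard errors. P-values are two-sided and Benjamini-Hochberg adjusted over all tested genes. CPM values use the TMM-scaled totals. The script was tested on simulated data: of changes of 1 on the log2 scale it recovered 70.6% in knockout against control and 67.1% in WM-3835 against DMSO, with 10 and 6 false calls among 18245 and 18240 genes. The simulation gave each gene the same spread in all groups and placed changes only in genes with a mean above 1 CPM. It therefore does not give the recovery for lower genes or for groups of unequal spread, as the groups here are.

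Members, pathway and marker lists were chosen with earlier results of these data known. A marker gene of the B-cell list and another of the innate lymphoid list, and the summed levels that include them, are not reported here. Values in every library are given for each member called in a main comparison or in the difference of the effects, group values for uncalled members among the 10 highest per length, and, of each pathway list, the 4 genes with the smallest adjusted p per comparison; other genes were named after their values were seen. Alternatives were RLE scaling, DESeq2 1.42.0, limma 3.58.1 (voom with quality weights per group), no low-count filter, the 6 libraries of a comparison alone, a replicate block, leaving out each library, Xist as a covariate, and knockout 3 alone. All 39 members matched RefSeq positions on GRCm38.p6, and 32 had a promoter sequence.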

Additional observations from a re-analysis of the deposited data

Results flagged for a closer look

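For 6 members the knockout effect and the inhibitor effect differed by the interaction test. That test compares the gene deletion with the inhibitor in cultures that also differ in genotype label, tamoxifen and Xist level. The knockout effect minus the inhibitor effect, on the log2 scale, was -1.66 for Tnfrsf23, -1.53 for Tnfrsf18, -1.23 for Ngfr, -1.21 for Tnfsf10, -1.17 for Tnfrsf12a and 1.06 for Tnfrsf9. With Xist as a covariate, 3 of these differences still passed (Tnfrsf23, Tnfrsf18 and Tnfrsf12a). In DMSO libraries Tnfrsf23, Ngfr, Tnfsf10 and Tnfrsf12a stood lower than in control libraries, and the reference groups cannot be told apart from the treatments in this difference.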

How the results depend on the processing

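In knockout against control, 6 members were called. With DESeq2 the count was 11 (15% of all genes), and with voom and quality weights per group it was 3 (6.32%). A fit of the 6 libraries of this comparison gave 3 (6.53%), and a term for Xist gave 0 (2.69%). The share of all genes called thus moved between these fits as well. Leaving out 1 library gave 3 (without knockout 2, with 9.2% of all genes) to 11 (without control 2, with 14.6%). None of the 6 calls passed in all 14 other fits. No direction changed, which was nearly fixed in advance because the groups did not overlap for these genes. In WM-3835 against DMSO, the 9 calls became 14 with quality weights (35.3% of all genes) and 14 on the 6 libraries alone (34.6%). They became 7 to 8 when 1 library was left out, with 12.4% to 13.9% of all genes. The 6 differences between effects became 3 with Xist as a covariate (3.86% of all genes) and 5 to 7 when 1 library was left out (6.99% to 11.7%). In DMSO against control, the 15 calls became 10 to 15 when 1 library was left out (16.9% to 25% of all genes). RLE scaling changed none of these 4 counts, and the cause of the other changes was not tested. The groups share replicate numbers but no stated pairing: same-numbered control and knockout libraries correlated at -0.0132 to 0.0201, and DMSO and WM-3835 libraries at 0.0270 to 0.131, where DMSO 3 correlated best with another number. With the replicate number as a block the counts were 6, 10, 6 and 16 (13.6%, 18.8%, 10.9% and 24.4% of all genes). For members below about 1 RPKM, such as Tnfrsf17 and Lta, depth and replicate spread limit what can be detected.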
